A study of Mus musculus with 310 samples.

Results

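Lrig1 was examined together with 7 genes of the ErbB pathway in single Lrig1 GL cells, the cells that Lrig1+ stem cells of mouse tail epidermis leave behind after genetic labelling. The 8 genes were chosen by name: Lrig1 itself, the receptors Egfr, Erbb2 and Erbb3, the ligands Areg, Hbegf and Tgfa, and the inhibitor Errfi1. All 8 were present in the read count table, which lists 14068 genes. The rule used no measured value.

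The table holds 310 columns, each taken here as a single tdTomato+ cell. The Smart-seq2 protocol used copies polyadenylated RNA from a sorted cell in each well and carries no molecular identifiers. Titles of 15 columns carry a suffix that the labels do not explain, such as IDTILL on plate C114 and MBULK on C119. Some wells of C114 appear both with and without it. These columns were counted as cells and were left out in an alternative. There were 145 cells in the group labelled 38w and 165 in the group labelled 38wUW, each in 2 replicates: RepI (70 cells, plates C114 and C118) and RepL (75 cells, plate C119) for 38w, and RepM (82 cells, plate C128) and RepN (83 cells, plate C129) for 38wUW. Every mouse carried the alleles Lrig1-EGFP-ires-CreERT2 and Rosa26-fl/STOP/fl-tdTomato on a CBA and C57BL/6 mixed background, and hydroxytamoxifen was applied once to the tail skin to label the cells. The study followed the labelled cells into aged skin after an earlier full-thickness wound or without one. The labels give 38 weeks for both groups and do not say which was wounded, so each difference is given as 38w against 38wUW. CreERT2 was driven from the Lrig1 locus, so the colour marks cells whose ancestors expressed Lrig1 at labelling, whether or not they still did. How many copies of Lrig1 carried the cassette is not given in the sources used here. Nothing in the labels ties the 4 replicates to separate animals, and p-values measure the spread between these replicates.

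ErbB receptors are tyrosine kinases on the cell surface that bind ligands of the EGF family, pair with one another and drive growth, migration and survival of keratinocytes. Egfr binds ligand and is an active kinase, Erbb2 has no known ligand and acts as a partner, and Erbb3 binds neuregulins but is a weak kinase that signals through its partners. Areg, Hbegf and Tgfa are made as membrane precursors, are cut loose by ADAM proteases and bind Egfr. Lrig1 is a transmembrane protein of leucine-rich repeats and immunoglobulin domains that binds ErbB receptors and promotes their removal, and it marks stem cells of the upper HF. Errfi1, also called Mig6, is a cytoplasmic inhibitor of the Egfr kinase that is itself induced by ErbB signalling.

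Depth and composition differed between plates. Cells held from 11711 to 721564 reads with a median of 61294, and the summed reads of a replicate ran from 5472070 (RepM) to 12946742 (RepN). The median share of a cell's reads in ribosomal protein genes was 31.9% on C114 and from 3.61% to 6.86% on the other plates, and that of mitochondrially encoded genes ran from 2.77% on C114 to 33.8% on C118. Krt14 was read in 279 of the 310 cells, and at least 1 of 7 epidermal keratins in 309. Levels are given as CPM, a gene's share of all reads of a cell sum, scaled so that every sum has the same total. Of the listed markers of other cell types, 1 of 6 for immune cells (Ptprc) was in the table and stood at 0.514 to 1.72 CPM in a replicate, and 4 of 6 for melanocytes summed to 11.5 to 26.9 CPM. For fibroblasts 5 of 6 summed to 8.42 to 62.7 CPM, highest in RepI. Of 3 endothelial markers 2 were in the table: Pecam1 was read in all 310 cells and Kdr stayed at or below 0.411 CPM. Their part in the results was not tested.

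The 8 genes were sparsely read. Egfr was read in 189 of 310 cells, Erbb2 in 131, Lrig1 in 113, Erbb3 in 107, Hbegf in 100, Errfi1 in 96, Tgfa in 42 and Areg in 18. A single cell held 28.3% of all Tgfa reads, 19.6% of the Errfi1 reads and 18.9% of the Areg reads, and for each of these 3 genes that cell belonged to RepN. For Lrig1 the richest cell held 8.48% of the reads, the lowest such share among the 8 genes.

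Levels can be compared between genes after division by transcript length (the longest protein-coding transcript in the GENCODE M21 annotation). On this scale Hbegf was the highest, with 37.9 ± 34.3 CPM per kilobase (SD, n = 4 replicates). Errfi1 followed with 13.3 ± 11.5, Egfr with 12.8 ± 4.99, Lrig1 with 8.36 ± 5.17 and Areg with 6.81 ± 4.18. Erbb3 stood at 5.17 ± 3.57, Erbb2 at 4.51 ± 2.47 and Tgfa at 3.28 ± 2.97 CPM per kilobase. No neighbours in this order differed by more than the larger of their SDs. The spread of Hbegf came from RepN, where it reached 88.9 CPM per kilobase against 14.4 to 24.5 in the other replicates.

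Lrig1 lies on chromosome 6 at 94604529 to 94700158 on the minus strand of GRCm38, and Areg on chromosome 5 at 91139599 to 91148432 and Errfi1 on chromosome 4 at 150853919 to 150868892, both on the plus strand. All 3 are protein-coding genes. The bases just before their transcription starts are printed here, because Lrig1 marks the labelled lineage, Areg was the ligand that differed between marker classes, and Errfi1 had the largest fitted difference between the groups. The sequences are RefSeq's for GRCm38.p6, read 5′ to 3′ along the gene, from chr6:94700159-94700395 (minus strand, the 237 bases before the furthest annotated exon), chr5:91139349-91139598 (plus strand) and chr4:150854820-150855069 (plus strand, the downstream one of 2 annotated starts, within an intron of the longer transcript). Capitals mark matches to 4 motifs, searched on both strands. The cAMP response element was spelled TGACGTCA. The AP-1 site was spelled TGANTCA, which cannot overlap that string. The GC box was spelled GGGCGG and overlaps neither of these. The TATA box was spelled TATAAA.
Lrig1: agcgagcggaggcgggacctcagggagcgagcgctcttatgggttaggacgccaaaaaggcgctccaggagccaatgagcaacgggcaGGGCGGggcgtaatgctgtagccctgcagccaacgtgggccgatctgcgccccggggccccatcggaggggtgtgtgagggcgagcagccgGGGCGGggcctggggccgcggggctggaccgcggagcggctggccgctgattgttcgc
Areg: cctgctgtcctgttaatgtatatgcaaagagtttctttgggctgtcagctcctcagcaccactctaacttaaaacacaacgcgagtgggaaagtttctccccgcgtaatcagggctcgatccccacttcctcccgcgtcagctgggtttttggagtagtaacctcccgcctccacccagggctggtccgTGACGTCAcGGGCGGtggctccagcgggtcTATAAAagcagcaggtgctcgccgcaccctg
Errfi1: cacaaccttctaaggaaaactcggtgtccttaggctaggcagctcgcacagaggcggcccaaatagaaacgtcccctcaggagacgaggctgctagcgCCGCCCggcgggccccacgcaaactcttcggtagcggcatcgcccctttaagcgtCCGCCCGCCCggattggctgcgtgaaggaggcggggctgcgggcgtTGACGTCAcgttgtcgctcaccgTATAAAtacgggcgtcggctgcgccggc
Areg and Errfi1 each held 1 cAMP response element, starting 61 and 51 bases before the start, and 1 TATA box, starting 31 and 28 bases before it. The Lrig1 stretch held 2 GC boxes and neither of those motifs. Over 32851 promoter windows of equal length, 1.55% held the cAMP response element, 12.4% the TATA box, 32.7% the GC box and 6.75% the AP-1 site. Entries were found for 6 of the 8 genes (not for Erbb3 and Hbegf), 7 in all, and the other 5 held neither a cAMP response element nor a TATA box. A match is a string of letters and not a measured site.

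The first comparison asked whether the brake, the receptors and the ligands differed between 38w and 38wUW. None of the 8 genes passed the threshold in edgeR's quasi-likelihood test on counts summed per replicate (adjusted p under 0.05 over 11760 genes). The same fit called 0 genes of the whole table, 928 genes had an unadjusted p under 0.05, and DESeq2 called 68 genes and none of the 8. In 5 of the 8, both 38w replicates lay below both 38wUW replicates in CPM, an order found in 26.2% of all genes tested; the reverse order was found in 0 of the 8 and in 12.6% of all genes. The median log2 fold change was -1.22 over the 8 genes and 0.12 over all genes.

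Lrig1 stood at 38.5 CPM (RepI) and 7.07 CPM (RepL) in 38w, and at 53.6 CPM (RepM) and 66.5 CPM (RepN) in 38wUW. The group means were 22.8 ± 22.2 and 60.05 ± 9.09 CPM (SD, n = 2). The groups did not overlap, but the distance between the 38w replicates was almost as large as that between the group means, and the difference did not pass (log2 fold change -1.13, SE 0.96, adjusted p = 0.761 by edgeR). By plate, C114 gave 40.8 CPM, C118 27.3 and C119 7.07, so that all 3 38w plates lay below both 38wUW plates.

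Among the receptors, Egfr measured 88.7 and 199 CPM in the 38w replicates RepI and RepL, and 95.4 and 141 CPM in the 38wUW replicates RepM and RepN. Its 38w replicates bracketed those of 38wUW, and the fitted difference was 0.52 (SE 0.85, adjusted p = 0.871 by edgeR). A single cell of RepL held 16.0% of all Egfr reads. Erbb2 measured 39.1, 20.3, 21.9 and 9.04 CPM in the same order. It overlapped between the groups (log2 fold change 1.19, SE 0.95, adjusted p = 0.749), with its highest level, 45.7 CPM, on C114 and its lowest, 8.14 CPM, on C118, 2 plates of the same replicate. Erbb3 measured 20.1 and 9.31 CPM in the 38w replicates and 58.7 and 36.4 CPM in the 38wUW replicates, with no overlap. Its difference of -1.44 (SE 0.92) had an adjusted p of 0.696 by edgeR.

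The ligand Hbegf, which also binds Erbb4, measured 34.1 and 57.1 CPM in 38w and 58.1 and 211 CPM in 38wUW. The groups nearly touched, at 57.1 CPM in RepL and 58.1 CPM in RepM, and the higher mean of 38wUW (135 ± 108 CPM against 45.6 ± 16.2) rested on RepN (log2 fold change -1.31, SE 0.90, adjusted p = 0.707 by edgeR). Tgfa, a ligand that keratinocytes use on themselves, measured 0.823 and 8.27 CPM in 38w and 31.8 and 18.5 CPM in 38wUW. The groups did not overlap (log2 fold change -2.25, SE 1.19, adjusted p = 0.656). Areg measured 1.13 and 9.48 CPM in 38w and 13.2 and 9.35 CPM in 38wUW, so that RepL and RepN were nearly level (log2 fold change -0.86, SE 1.18, adjusted p = 0.851). Neither Tgfa nor Areg had a read in the 17 cells of C118, which allows a share of up to 17.6% of such cells and a level of up to 1.74 CPM (3 reads); intervals and such limits cover counting error only.

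Errfi1 showed the largest fitted difference. It measured 6.68 and 16.2 CPM in the 38w replicates and 58.3 and 81.0 CPM in the 38wUW replicates, with means of 11.4 ± 6.73 and 69.7 ± 16.1 CPM (SD, n = 2). The 38wUW replicates were both above every 38w plate, the highest of which was C119 with 16.2 CPM. The log2 fold change was -2.37 (SE 0.93) with an unadjusted p of 0.0225 and an adjusted p of 0.628 by edgeR. Errfi1 was the only 1 of the 8 with an unadjusted p under 0.05, which 7.89% of all genes tested reached, 3.74% with a lower level in 38w. Without RepL the adjusted p fell to 0.033 for Errfi1 (log2 fold change -3.04) and to 0.017 for Tgfa (log2 fold change -4.58), in a fit where 1215 genes were called and where RepI stood alone for 38w, assumed to vary like 38wUW. Without RepL Egfr turned to -0.076, and Lrig1 ran from -2.85 without RepI to -0.30 without RepL.

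**Figure D1:**
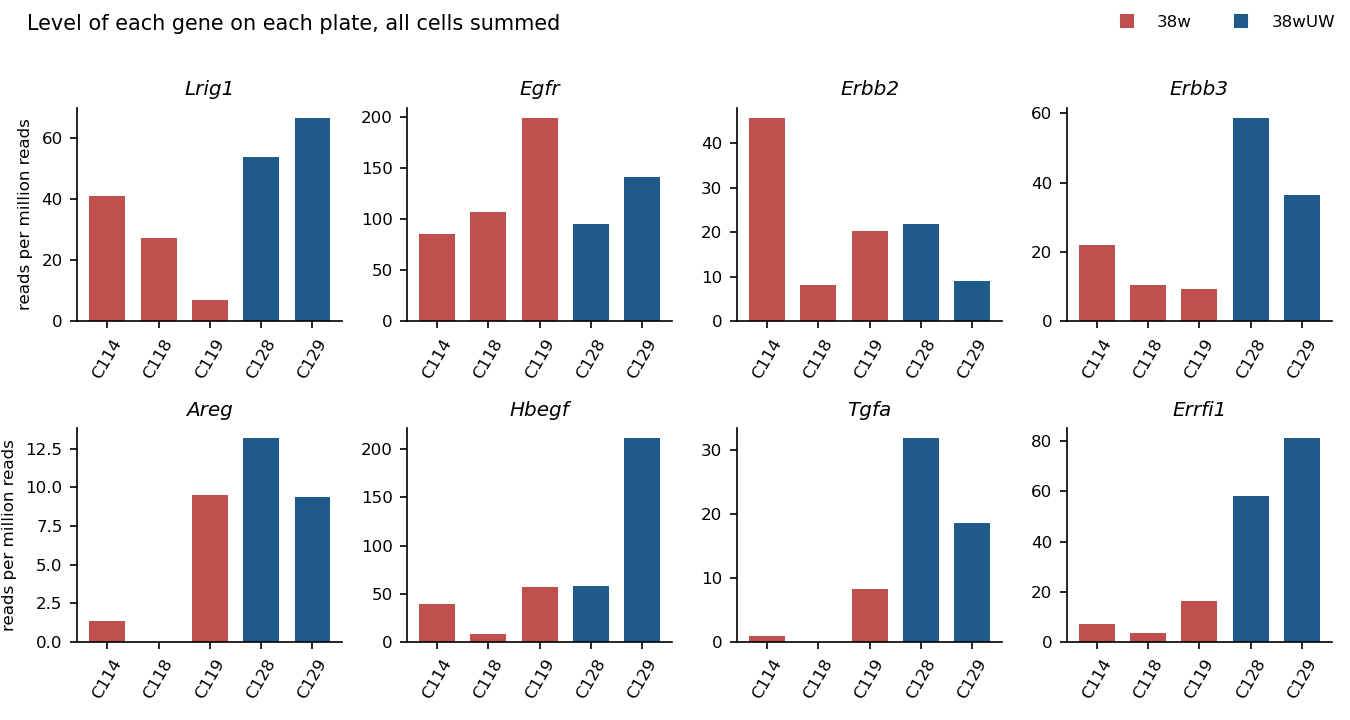
Level of each gene in CPM (vertical axis, from 0, a scale of its own per panel) on each of the 5 plates (horizontal axis), with all cells of a plate summed; bars are single values, red for 38w and blue for 38wUW. Lrig1, Erbb3, Tgfa and Errfi1 were higher on both 38wUW plates than on any 38w plate, while Egfr and Erbb2 overlapped.

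How many cells carried a read was a separate measure from the level. Each cell was thinned at random to 20000 reads, which left 138 of the 38w and 139 of the 38wUW cells. Egfr was read in 48.5% and 48.6% of 38w cells and in 43.8% and 52.0% of 38wUW cells, a spread smaller than the Wilson 95% interval of any replicate (37.1% to 60.2% in RepI). Lrig1 was read in 16 of 68 cells of RepI (23.5%) and 7 of 70 cells of RepL, and in 24 of 64 cells of RepM (37.5%) and 30 of 75 cells of RepN. Hbegf was read in 13.2% and 7.14% against 45.3% and 49.3%, the widest gap of the 8 genes, 37.1 percentage points between the group means.

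The other genes fell between these. Errfi1 was read in 9 of 68 and 7 of 70 cells in 38w against 27 of 64 and 19 of 75 cells in 38wUW, and Erbb3 in 14.7% and 12.9% against 31.3% and 32.0%. Tgfa was read in 1 of 68 and 3 of 70 cells against 14 of 64 and 9 of 75 cells. Areg was read in 0 of 68 cells of RepI, which allows up to 4.41%, and in 2.86% of RepL, against 10.9% and 5.33%. Erbb2 was read in 29.4% and 21.4% against 28.1% and 13.3%, with overlap. So for 6 of the 8 genes both 38w replicates lay below both 38wUW replicates, an order that 32.5% of all genes tested showed and that 10.5% showed in reverse. The exact two-sided permutation test over 4 replicates gave p = 0.333 for each of the 6, the smallest value that 2 against 2 allows, so no share could pass. Without thinning, the mean Lrig1 share was 23.0% in 38w and 48.5% in 38wUW, that of Hbegf 15.4% and 47.3% and that of Egfr 62.8% and 59.4%, and the order held for the same 6 genes.

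Among the cells with a read of a gene, the levels were closer together than the shares for some genes. The median Lrig1 level in unthinned cells with a Lrig1 read was 58.3 and 37.3 CPM in the 38w replicates and 79.1 and 65.1 CPM in the 38wUW replicates. The median Errfi1 level in such cells was 17.5, 40.9, 69.2 and 58.8 CPM, and the median Hbegf level 44.6, 199.9, 127.6 and 266 CPM, the value of RepL resting on 6 cells. C114, from which most RepI cells came, gave up 31.9% of its reads to ribosomal protein genes, and its part in the lower shares of RepI was not tested.

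**Figure D2:**
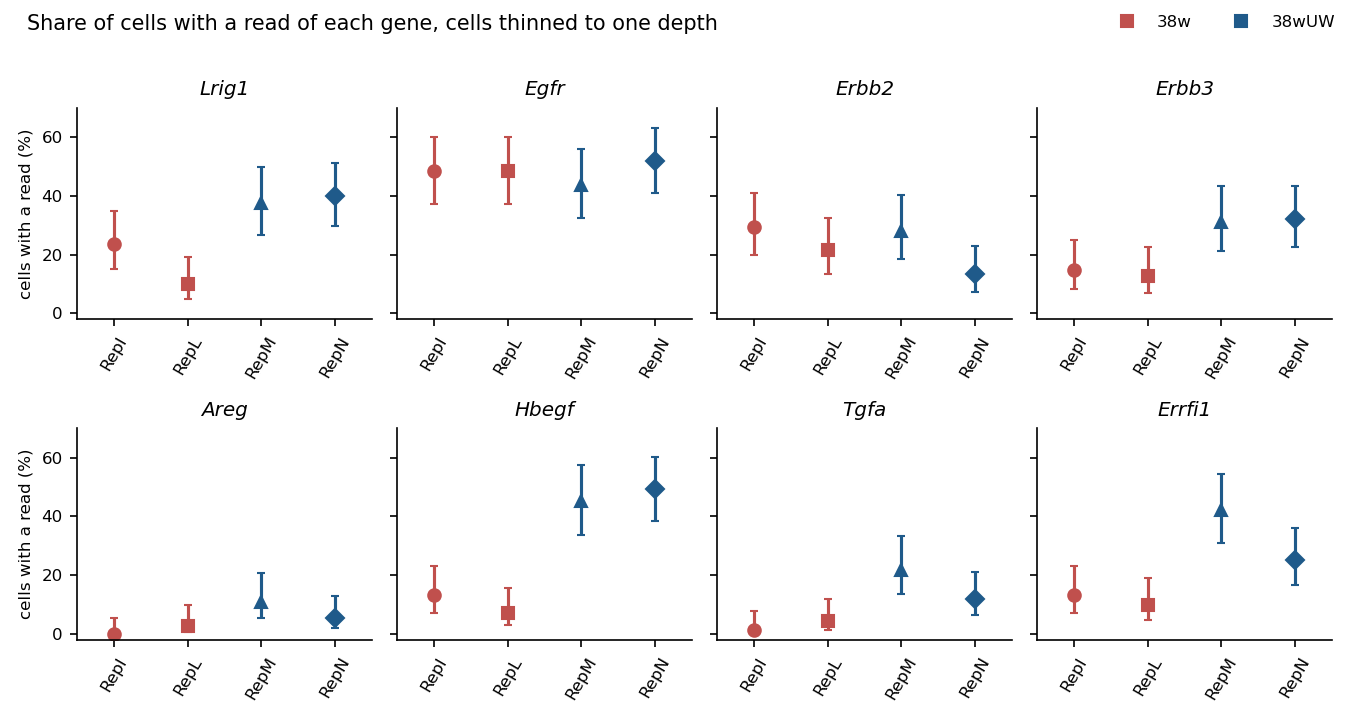
Percent of cells with at least 1 read of each gene after thinning to 20000 reads per cell (vertical axis) in each replicate (horizontal axis); points are replicates, bars are Wilson 95% intervals, red for 38w and blue for 38wUW. Hbegf stood at 7.14% to 13.2% in 38w and 45.3% to 49.3% in 38wUW, whereas Egfr stood between 43.8% and 52.0% in all 4.

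The second comparison asked in which kinds of epidermal cell the genes were read. Each cell was put in the class whose marker genes it scored highest for: basal-like (96 cells), differentiated-like (54), infundibular-like (60), junctional-like (12), bulge-like (59) or sebaceous-like (29). None of the 8 genes was a marker. These classes are ranges of a score and not types, and 73 of the 310 cells led by less than 0.25. Their shares differed between the groups: differentiated-like cells made up 21 of 70 cells of RepI and 17 of 75 of RepL but 8 of 82 of RepM and 8 of 83 of RepN, and bulge-like cells 4.29% and 14.7% of the 38w replicates and 22.0% and 32.5% of the 38wUW replicates. Infundibular-like cells made up 17.1% and 9.33% of 38w and 29.3% and 20.5% of 38wUW, and basal-like cells 42.9% and 41.3% of 38w and 26.8% and 15.7% of 38wUW. Of the 10 genes that led each class by fold, 3 were its own markers in the infundibular-like and sebaceous-like classes, 1 in the differentiated-like, junctional-like and bulge-like classes and 0 in the basal-like class. Counts were summed per class and replicate wherever at least 5 cells were present, and each class was tested against the mean of the other classes with the replicate as a block, over 10161 genes. The 12 junctional-like cells, named for the zone of the HF where Lrig1+ SCs reside, were too few for the fit.

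Of 40 pairs of gene and class, 2 passed the threshold and 14 had an unadjusted p under 0.05. The share of all genes with such an unadjusted p in a class was not counted. The contrasts of a gene use the same sums, so the pairs are not separate results. Areg was called higher in the infundibular-like class, and Lrig1 was called lower in the differentiated-like class. Of all genes, 3.6% were called higher and 1.68% lower in the infundibular-like class, and 1.05% higher and 0.138% lower in the differentiated-like class. The other classes held 0 called pairs among the 8 genes, against 0.413% of all genes higher and 0.0984% lower in the basal-like class, 1.06% and 0.167% in the bulge-like class, and 0.285% and 0.128% in the sebaceous-like class.

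Areg was read mostly in the infundibular-like class, which held 206 of its 259 reads. It measured 7.16 and 108 CPM there in the 38w replicates and 29.6 and 34.3 CPM in the 38wUW replicates, or 44.8 ± 43.9 CPM over all (SD, n = 4). In the bulge-like class it measured 7.84 CPM in RepM and 6.24 in RepN, each from 1 cell, and 0 in RepL, and in the basal-like class it had 5 reads, all in RepL. No read fell in the 54 differentiated-like or the 29 sebaceous-like cells. Against 3 reads over those classes, the pooled infundibular-like level of 31.9 CPM was at least 63.0-fold and at least 28.1-fold higher. The call (adjusted p = 0.00277 by edgeR) held in all 10 alternatives tried, with adjusted p-values up to 0.0207 without RepL; its fitted log2 fold change depends on the prior count and is not printed. The reads came from few cells: 14 of the 60 infundibular-like cells had any.

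Lrig1 was nearly absent from the differentiated-like class. It measured 1.34 and 0 CPM there in the 38w replicates and 8.84 and 0.683 CPM in the 38wUW replicates, 9 reads in all. In the infundibular-like class it measured 93.1, 6.49, 67.0 and 61.7 CPM, in the bulge-like class 17.8 (RepL), 65.9 (RepM) and 112 (RepN), and in the sebaceous-like class 35.0, 85.3 and 87.7 in the same 3. The basal-like class lay between, with 20.1, 0.731, 13.6 and 29.4 CPM. The 12 junctional-like cells pooled to 88.1 CPM, and 9 of the 12 had a read. The lower level in the differentiated-like class had a log2 fold change of -4.44 (SE 0.95, adjusted p = 0.0239 by edgeR). The direction held in all 10 alternatives and the call in 4. Without the replicate block the adjusted p was 0.0655, and with cells of a lead under 0.25 left out 0.136. Without plate C114 it was 0.108, without RepI 0.19, without RepL 0.0716 and without RepN 0.165, with log2 fold changes from -4.20 to -3.97. The higher levels in the bulge-like class (2.09, SE 0.67) and the sebaceous-like class (2.29, SE 0.70) had adjusted p-values of 0.158 and 0.234 by edgeR and of 0.0347 and 0.0272 by DESeq2.

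The receptors were spread differently over the classes. Egfr was highest in the basal-like class, with 228 ± 103 CPM over 4 replicates, against 64.9 ± 23.3 in the infundibular-like class. Its basal-like difference of 1.30 (SE 0.50) had an unadjusted p of 0.0188 and an adjusted p of 0.313 by edgeR. The richest Egfr cell, in RepL, held 16.0% of all 4368 Egfr reads. Among the RepL class sums only the basal-like one, with 931 reads, was large enough to hold that cell. Erbb2 and Erbb3 were both highest in the infundibular-like class among the 5 classes fitted, with 46.2 ± 28.2 and 62.4 ± 11.9 CPM. Their differences of 1.57 (SE 0.60) and 1.82 (SE 0.69) each had an adjusted p of 0.152, and passed only with DESeq2 (0.0283 and 0.0415). Erbb3 varied least there of all 8 genes, from 44.9 to 71.8 CPM over the 4 replicates. In the sebaceous-like class Erbb2 measured 0.685 CPM in RepN and did not exceed 13.4 CPM in any of the 3 replicates fitted (log2 fold change -2.14, SE 0.90, adjusted p = 0.43).

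Hbegf was read in 36 of 60 infundibular-like and 9 of 12 junctional-like cells but in 10 of 54 differentiated-like cells. These pooled counts mix class with group. Differentiated-like cells with a read were 1 of 21 in RepI, 1 of 17 in RepL, and 4 of 8 in each of RepM and RepN. Infundibular-like cells with a read were 6 of 12, 1 of 7, 17 of 24 and 12 of 17 in the same order. The infundibular-like Hbegf level ran from 38.9 CPM in RepL to 382 in RepN. The bulge-like difference of 3.39 (SE 1.61, adjusted p = 0.376) turned to -1.10 without RepL, where 309 reads came from 3 cells. Errfi1 measured 69.2 ± 57.4 CPM in the infundibular-like class and 12.5 ± 11.3 in the differentiated-like class (infundibular-like difference 1.57, SE 0.62, adjusted p = 0.169), and the 12 junctional-like cells pooled to 195 CPM. The richest Errfi1 cell, in RepN, held 19.6% of all 1527 Errfi1 reads. Among the RepN class sums only the junctional-like one, with 355 reads, was large enough to hold it, so the pooled junctional-like level rested largely on that cell. Tgfa had reads in 25 of 60 infundibular-like cells and in none of the 29 sebaceous-like cells, and its infundibular-like difference of 2.69 (SE 1.07) had an adjusted p of 0.177. Its basal-like mean was higher, 24.4 ± 32.6 CPM, but there 133 of 173 reads came from 1 cell of RepN.

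**Figure D3:**
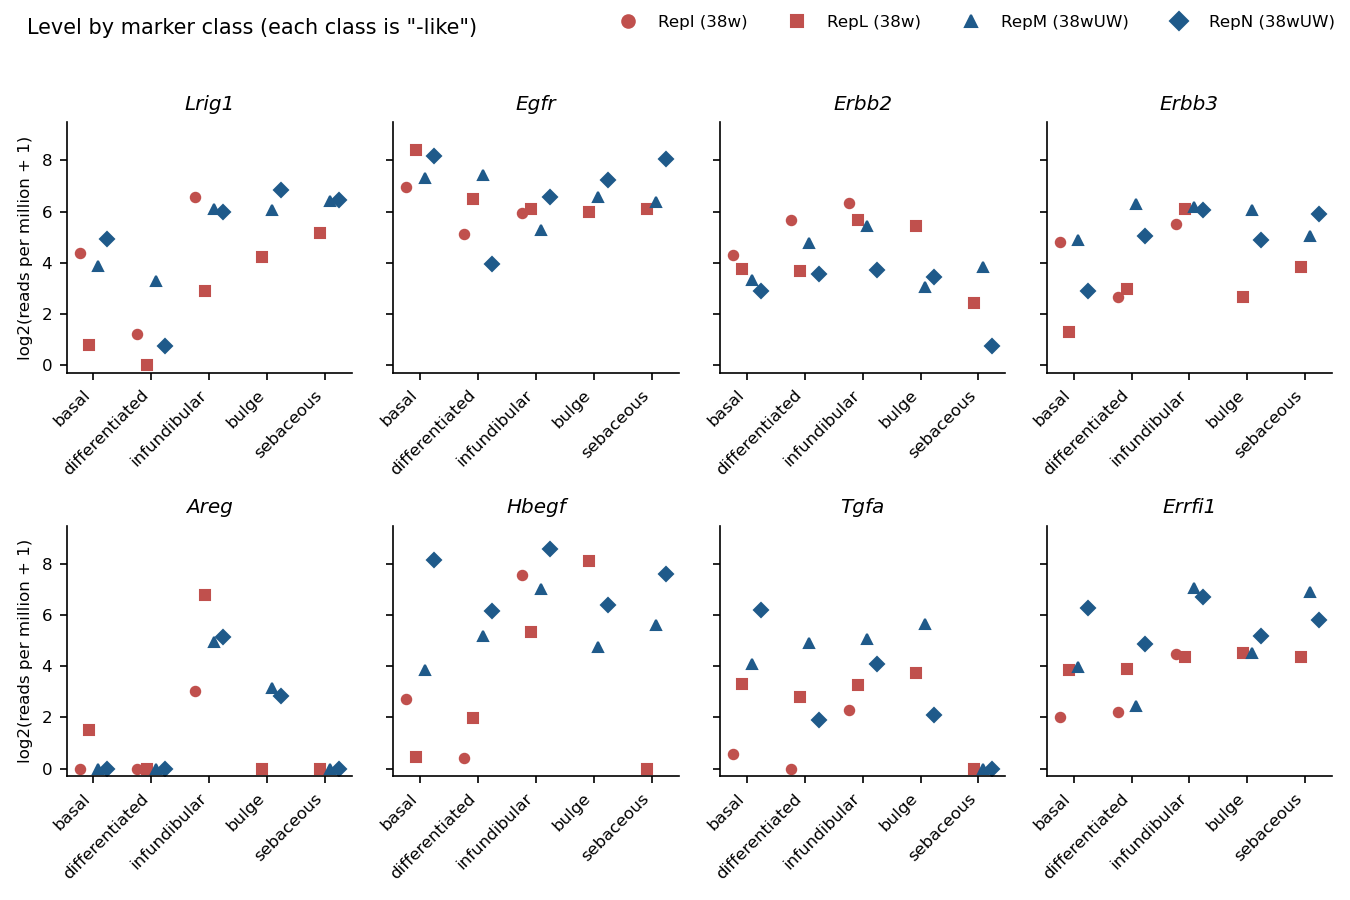
Level of each gene as log2(CPM + 1) (vertical axis) in each marker class (horizontal axis); each point is the sum of at least 5 cells of 1 class in 1 replicate, marked by replicate and coloured by group. Areg sat at 0 in most sums outside the infundibular-like class, and Lrig1 was on average lowest in the differentiated-like class.

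Levels were also set side by side within a class, in the 3 classes with 5 or more cells in every replicate, as values with no test. How many of all genes keep the groups apart within a class was not counted. Over all cells, 26.2% of all genes tested were lower in both 38w replicates and 12.6% were higher in both. Those shares are for sums of whole replicates and do not give the rate for the smaller class sums. Whether the genes below keep the groups apart more often than other genes within a class was therefore not tested. Of the genes studied, 3 were lower in both 38w replicates of the basal-like class, 1 was higher and 4 overlapped. For the infundibular-like class these counts were 2, 1 and 5. In the infundibular-like class Lrig1 overlapped between the groups, at 93.1 and 6.49 CPM in 38w and 67.0 and 61.7 in 38wUW. Errfi1 did not overlap there, at 21.5 and 19.5 CPM in 38w and 132 and 104 in 38wUW, and neither did Tgfa, at 3.91 and 8.65 against 32.6 and 16.1. In the basal-like class Hbegf measured 5.52 and 0.365 CPM in 38w and 13.6 and 280 in 38wUW, and Errfi1 3.01 and 13.5 against 14.7 and 76.8. Tgfa measured 0.502 and 8.77 CPM there in 38w and 15.8 and 72.4 in 38wUW, the last from 1 cell. Erbb2 went the other way in the basal-like class, at 18.8 and 12.4 CPM in 38w and 9.05 and 6.54 in 38wUW, and in the infundibular-like class, at 80.7 and 49.8 against 42.2 and 12.2. In the differentiated-like class Hbegf measured 0.335 and 2.94 CPM in 38w and 35.4 and 70.3 in 38wUW, and Erbb3 5.36 and 6.87 against 77.4 and 32.1, while the other 6 genes overlapped.

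When the basal-like, differentiated-like, infundibular-like and bulge-like classes were given equal weight in every replicate, an alternative chosen after seeing the data, the Lrig1 shares overlapped: 35.9% and 6.96% in 38w, 29.3% and 35.4% in 38wUW. The bulge-like class of RepI rested on 3 cells there. Hbegf kept its gap, with 11.8% and 12.5% against 35.5% and 53.9%, as did Errfi1, with 9.22% and 14.3% against 40.0% and 27.0%. Tgfa measured 2.08% and 6.96% against 21.8% and 14.7%. The Erbb3 gap between the group means narrowed from 17.8 to 10.3 percentage points, with 22.2% and 18.5% against 31.3% and 30.0%, and Areg overlapped. The part of class composition in the group differences was not tested beyond these values.

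Detection of the 8 genes in the same cell was counted in the 277 thinned cells, as a description. Thinning made their depth equal, but all pairs share each cell's marker class and replicate. At least 1 of the 3 receptors was read in 72.1% and 62.9% of 38w cells and in 67.2% and 73.3% of 38wUW cells. At least 1 of the 3 ligands was read in 13.2% and 11.4% of 38w cells and in 56.3% and 52.0% of 38wUW cells. Hbegf was read in 80 of the 92 cells with a ligand read, so this gap largely repeats that of Hbegf. How often other sets of 3 genes differ in this way was not counted. None of the 8 genes was read in 20.6% and 32.9% of 38w cells and in 7.81% and 9.33% of 38wUW cells. Of the 77 cells with a Lrig1 read, 62 also had a read of at least 1 receptor.

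Cells with a Lrig1 read more often had a read of Hbegf, in 41 of 77 cells (53.2%) against 19.5% of the 200 cells without. This order held in each of the 4 replicates, but its size varied, from 79.2% against 25.0% in RepM to 53.3% against 46.7% in RepN. In thinned cells, Lrig1 was read in 29 of 56 infundibular-like and 2 of 50 differentiated-like cells, and Hbegf in 31 and 6 of them. The part of marker class in this order was not tested. Erbb3 was read in 40.3% of the cells with and 16.0% of those without Lrig1, and Tgfa in 19.5% against 6.00%, each with the same order in 4 of 4 replicates. For Tgfa that order rested on 1 cell with both genes in each 38w replicate, and the pooled percentages mix replicates that differed in their shares of both genes. Egfr was read at 50.6% and 47.5%. Errfi1 was read at 25.0% and 9.62% in RepI but at 41.7% and 42.5% in RepM, with the order held in 2 of 4 replicates. Erbb2 went both ways, from 56.3% against 21.2% in RepI to 0 of 7 cells against 23.8% in RepL. Hbegf and Errfi1 were also read together in the same order in 4 of 4 replicates, Errfi1 being read in 38.8% of the cells with Hbegf and 15.7% of those without.

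**Figure D4:**
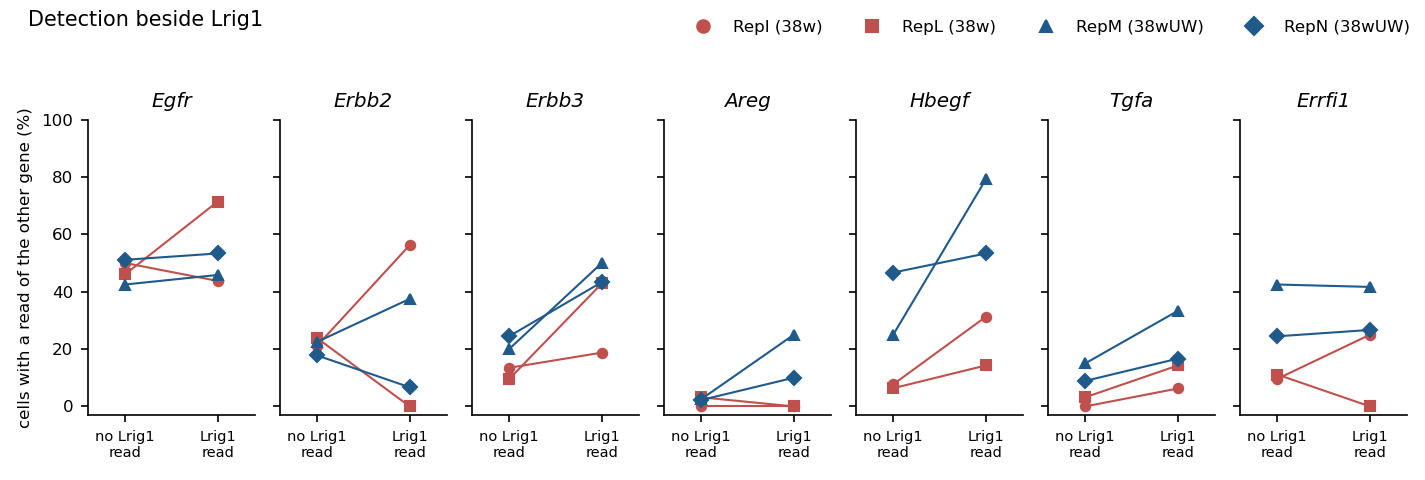
Percent of thinned cells with a read of each other gene (vertical axis) among cells without and with a Lrig1 read (horizontal axis); each line is 1 replicate, coloured by group. The lines of Hbegf, Erbb3 and Tgfa went up in all 4 replicates, and those of Erbb2 and Errfi1 went both ways.

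For each gene, genes with the most similar pattern over the 18 class and replicate sums were found by Pearson correlation of log2(CPM + 1) after removing the replicate mean, among 4071 or 4072 genes; the sums share replicates and cells, and no p is given. For Lrig1 these were Alcam (r = 0.901), Jun (0.853) and Osmr (0.826). Alcam encodes a cell adhesion molecule and Osmr the oncostatin M receptor. For Areg they were Bace2 (0.921), Gdpd1 (0.859) and Nebl (0.853), for Errfi1 Gata6 (0.784), a class marker, and Clint1 (0.751), and for Hbegf Vdr (0.847), Chmp4c (0.839) and Egr2 (0.837). Erbb2 was most like Krt80 (0.897), Ppp2ca (0.873) and Btg1 (0.864), Erbb3 like Endod1 (0.851) and Nfe2l3 (0.793), Egfr like Hpf1 (0.869), Ncapg2 (0.865) and Cops2 (0.814), and Tgfa like Tmed9 (0.813), Serpinb2 (0.812) and Cyfip1 (0.769). No member of the 8 was among the 3 nearest genes of another. The closest pair within the 8 was Areg with Erbb3 (0.612), followed by Erbb2 with Hbegf (0.582) and Lrig1 with Errfi1 (0.566).

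The rest of the pathway was read from a list of 55 genes, of which 52 were in the table and 48 were tested. None passed between 38w and 38wUW by edgeR. An unadjusted p under 0.05 was reached by 3 of the 48, against 7.89% of all genes tested. These were Ereg, Dusp6 and Fosl1, named here after their values were seen. DESeq2 called 1 of them, Ereg, and 68 of all genes. In 13 of the 48 both 38w replicates lay below both 38wUW replicates and in 1 above, against 26.2% and 12.6% of all genes. The median log2 fold change was -0.23.

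The genes named below were picked because their groups did not overlap. Both 38w replicates were lower in 3 of 10 feedback genes tested, 5 of 9 early response genes and 1 of 4 shedding genes. The groups overlapped in 7, 3 and 3 of them, and 1 early response gene was higher in both. The median log2 fold changes were -0.40, -0.49 and 0.16. Among feedback genes, Dusp6, a phosphatase of ERK that ERK signalling induces, measured 9.56 and 22.9 CPM in 38w and 131 and 77.7 in 38wUW (log2 fold change -2.45, SE 0.93, adjusted p = 0.628 by edgeR). Cbl, the ubiquitin ligase of Egfr, measured 15.5 and 29.5 against 48.8 and 64.4 CPM (-1.09, adjusted p = 0.751). Of the early response genes, Egr1 measured 168 and 293 against 581 and 1051 CPM, Junb 86.1 and 239 against 324 and 548, and Ier3 56.0 and 46.9 against 104 and 66.9, with adjusted p-values from 0.696 to 0.884. Myc lay in the other direction, at 26.1 and 35.9 CPM against 18.8 and 7.26 (1.49, SE 0.96, adjusted p = 0.696). These early response genes also react to cell isolation, and their part in the levels of Hbegf, Areg and Errfi1 was not tested. Of the shedding proteases, Adam17, which frees Areg, Hbegf and Tgfa, measured 16.2 and 20.5 against 31.3 and 46.4 CPM (-0.83, adjusted p = 0.814). Of the signalling genes, 2 of 14 in the adaptor and MAPK arm and 1 of 6 in the PI3K and STAT arm were lower in both 38w replicates, and the median log2 fold changes of these arms were 0.044 and 0.086. Gab1 (-1.13) and Pik3ca (-0.76) were among the 3, with adjusted p-values of 0.75 and 0.82.

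Across the marker classes, 45 of the pathway genes were tested. In the bulge-like class 1 was called higher, against 1.06% of all genes, and in the differentiated-like class 1 lower, against 0.138%. In the infundibular-like class 3 were called higher and 1 lower, against 3.6% and 1.68% of all genes. The 3 were Btc, Ereg and Dusp6, of which Btc and Ereg are, like Areg, ligands of Egfr. Btc measured 33.2 and 67.1 CPM in that class in 38w and 109 and 4.29 CPM in 38wUW, and at most 0.981 CPM in any other class sum of the fit (adjusted p = 0.00047 by edgeR). It was called in each of the 8 alternatives in which it was tested. Ereg measured 0.651 and 2.16 CPM in the infundibular-like class of the 38w replicates and 48.3 and 83.0 in that of 38wUW (adjusted p = 0.007), and its call was lost without RepM (adjusted p = 0.118). Dusp6 was called higher in the infundibular-like class (2.82, SE 0.68, adjusted p = 0.0204) and lower in the differentiated-like class (-4.60, SE 1.02, adjusted p = 0.0308), each kept in 3 of 10 alternatives. Etv5, a transcription factor induced by ERK signalling, had 1 read in the infundibular-like class and measured 15.6 to 44.1 CPM in the basal-like class (adjusted p = 0.0334, kept in 4 of 10). Fos was called higher in the bulge-like class (2.22, SE 0.50, adjusted p = 0.0318), with 8947 CPM in RepL and 3104 and 3815 CPM in the 38wUW replicates; the call was kept in 6 of 10 alternatives and lost without RepL (adjusted p = 0.522).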

How the data were processed

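Single tdTomato+ cells were sequenced by the authors (Smart-seq2). The deposited values are estimated counts per gene, made by the authors with Salmon 0.13.1 against Ensembl 101 transcripts of the mouse, after cells with fewer than 1000 genes or over 50% mitochondrial reads and genes in fewer than 5 cells were removed. Multimapping reads are split by Salmon, and 3.6% of values were not whole. The library protocol keeps no strand, and Lrig1, Erbb2 and Tgfa share exon bases with Slc25a26, Mien1 and Gm43917 on the opposite strand, so those reads cannot be told apart.

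Counts were summed per replicate, or per marker class and replicate, rounded, and tested with edgeR 4.0.16 (TMM, filterByExpr, quasi-likelihood F-test, R 4.3.3) over all genes with Benjamini-Hochberg adjustment at 0.05. DESeq2 1.42.0 was an alternative. Marker classes were scored as the mean z-score of log-normalized markers. Shares used cells thinned to 20000 reads, with Wilson 95% intervals and exact permutation tests. Tested on simulated data, edgeR recovered 79.5% of 200 genes changed 8-fold between the groups (12039 genes) and 100% between classes (9903 genes). The changed genes were drawn from those averaging more than 200 reads a sum, with a single set dispersion for all genes. Areg, Tgfa and Erbb2 averaged fewer reads in the replicate sums, and every member but Egfr averaged fewer in the class sums. The recovery therefore does not describe these sparse genes.

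The 8 genes were all named. Of the pathway list, genes past the threshold were named, and otherwise at most 4 per role that averaged at least 4 log2 CPM and did not overlap between groups, by size of change. Members and lists were chosen with earlier results of these data known. Coordinates are from GENCODE M21 (GRCm38, the build in the submitters' processing notes, an earlier release than the authors' transcripts). PCR copies are not independent molecules. Scores centred within plates and classes weighted equally were alternatives chosen after seeing the data. A few genes that these rules name are not reported here.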

Additional observations from a re-analysis of the deposited data

How the results depend on the processing

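Between 38w and 38wUW, 0 of the 8 genes were called in 15 of 16 alternatives and 2 without RepL, so leaving out a replicate gave 0 to 2. Of the pathway list 1 was called with DESeq2, and leaving out a replicate gave 0 to 3. Over all genes the count moved from 0 to 68 with DESeq2, 1 without the low-count filter, 3 and 4 with plates as units and the batch tag or the alternative batch tag as a block, and, without 1 replicate, 0 to 1215 (130 without RepI and 1215 without RepL). Among the genes' log2 fold changes, 125 stayed on the same side of 0 and of the threshold, 2 passed it (Tgfa and Errfi1 without RepL) and 1 turned: Egfr ran from -0.076 without RepL to 0.98 without RepI. The median of all genes moved between -0.22 and 0.28 over the alternatives.

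In the marker classes, the 2 called pairs became 9 with DESeq2 and 1 with the stricter class margin, without the replicate block or without plate C114, and, without 1 replicate, 1 to 2. Genes called higher in the infundibular-like class moved from 366 to 637 with DESeq2 and 184 without plate C114, and to between 144 and 310 without a replicate. Genes called lower in the differentiated-like class moved from 14 to 177 with DESeq2, 6 with the margin, 5 without plate C114 and 4 to 8 without a replicate. Hbegf in the bulge-like class ran from -1.10 without RepL to 5.11 without RepN.

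The count of genes whose 38w shares lay below both 38wUW shares was 4 to 7 under the alternatives, 6 in the main setting. Of 80 share differences 7 changed sign: Egfr to -7.95 percentage points at 10000 reads, -1.10 without the cells with a suffix, -3.84 at 5 or more reads, -1.34 with equal classes and -3.45 without RepM (4.8 without RepN), and Erbb2 to -1.19 without plate C114 and -2.70 without RepN (12.1 without RepM). The causes were not tested. No paired analysis was possible because the groups share none of the names RepI to RepN; both share a batch tag, and the fits over plates with that tag as a block called 0 of the 8 genes. With 2 replicates a group and few reads per cell, the lowest shares rest on very few cells.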
